A study of Arabidopsis thaliana with 3 samples.

Results

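Galactinol synthases and raffinose synthase make the raffinose family of oligosaccharides, and 5 Arabidopsis genes of this short pathway were examined: the galactinol synthase genes GOLS1 (AT2G47180), GOLS2 (AT1G56600), GOLS3 (AT1G09350) and GOLS4 (AT1G60470), and the raffinose synthase gene RS5 (AT5G40390). They were chosen by locus code, and probes were assigned to them through the platform annotation and the RefSeq gene table. Of the 5 genes, 4 were measured, by 6 probes, among 24648 genes in all. RS5 is not analysed here, so the measured set holds the galactinol step only.

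Galactinol synthase joins UDP-galactose to myo-inositol, and raffinose synthase moves the galactose of galactinol onto sucrose and releases the myo-inositol again. In leaves the products accumulate under drought, heat and cold and are regarded as osmoprotectants and scavengers of hydroxyl radicals. In Arabidopsis GOLS1 and GOLS2 are known as drought-, salt- and heat-responsive genes and GOLS3 as a cold-responsive target of the CBF factors, while RS5 is the main raffinose synthase of stressed leaves.

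RNA from rosettes of the double mutant lsm1a lsm1b was hybridised against rosette RNA of Col-0, the wild type, on 3 two-colour arrays, 1 for each biological replicate. LSM1A and LSM1B encode the LSM1 subunit of the cytoplasmic LSM1-7 ring, which promotes the decapping and decay of messenger RNAs, and the comparison asks which transcript levels differ without it. The 2 disrupted genes are not analysed here, so the genotype labels were not checked on the arrays. The mutant was labelled with Cy3 on arrays 1 and 3 and with Cy5 on array 2. The labels give both genotypes as 2-week-old rosettes grown at 22 °C with 16 h of light and 8 h of dark, but the sample descriptions give 3-week-old plants after 1 day at 4 °C. This matters here because several galactinol synthase genes respond to cold; both genotypes carry the same labels, and whether the plants were in the cold cannot be read from a ratio. The labels describe neither the mutant alleles nor the number of plants in a sample. Since whole rosettes were used, fewer cells of a type and less RNA per cell cannot be told apart.

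All values below are taken as log2 ratios of the mutant divided by Col-0. Base 2 was assumed, and the fold values rest on it. The direction is the likely one: the mutant is channel 1 of every sample and Col-0 is named the control. But Col-0 comes first in the sample titles, so the direction remains uncertain. With the opposite reading, all signs given here would turn. Array 2 correlated with arrays 1 and 3 at r = 0.427 and 0.452 over genes, which are not independent replicates, against 0.745 between arrays 1 and 3.

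Of the 4 measured genes, 0 passed the threshold of 0.05 for limma's adjusted p, against 1.21% of all genes tested (298 of 24648). At an unadjusted p under 0.05, 1 of the 4 passed, GOLS2, against 20.1% of all genes. GOLS2 had a mean ratio above 1, and GOLS1, GOLS3 and GOLS4 had mean ratios between -0.25 and 0.15. With 4 genes the counts differ little from the background, and nothing particular to the set is read from them.

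GOLS2 stood at 2.23 on array 1, 0.27 on array 2 and 1.37 on array 3, by its single probe. The ratio was above 0 on each array, but on array 2 it was close to 0 and lay far below the other two. As linear ratios these are 4.69, 1.21 and 2.58. The mean was 1.29 ± 0.98 (SD, n = 3 arrays), a 2.45-fold higher level in the mutant, with a 95% interval of 1.20-fold to 4.99-fold (limma, unadjusted p = 0.0244, adjusted p = 0.176). This difference did not pass the threshold over all genes. By the ordinary one-sample statistic, which uses the gene's own SD only, the interval was 0.45-fold to 13.3-fold (unadjusted p = 0.151). That interval includes no change. Limma's interval also included no change without array 1 (0.88-fold to 3.54-fold) and without array 3 (0.822-fold to 6.88-fold). In the other settings it lay above no change. The SD was 5.29 times the median SD of all genes, 0.186, and only 0.876% of genes varied more between arrays. Among the 24648 genes, 0.126% had a higher ratio on array 1, 0.759% on array 3 and 18.2% on array 2. The gene was therefore near the upper end of all genes on the 2 arrays that share a dye orientation and within the bulk on the dye-swapped array.

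**Figure D1:**
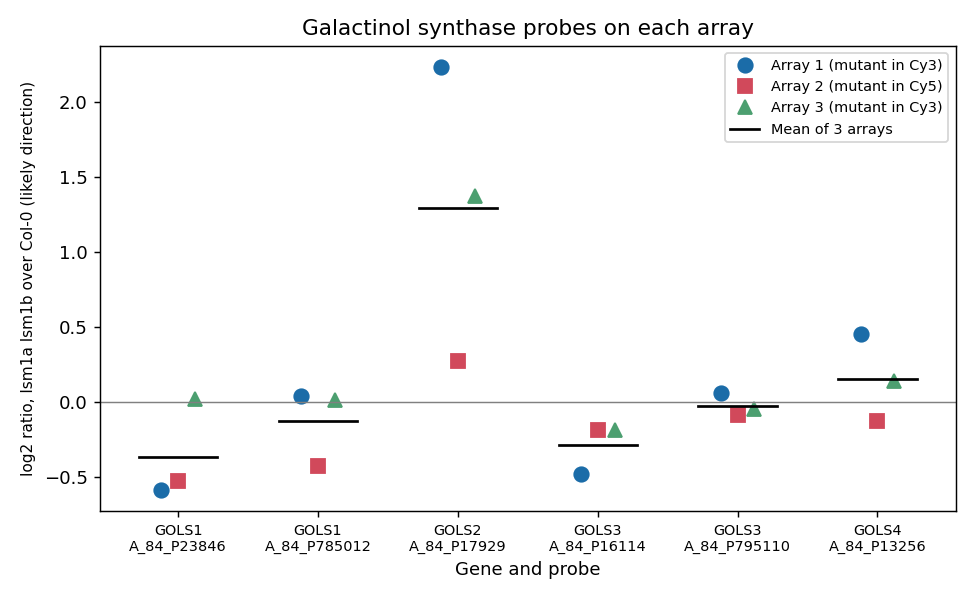
Log2 ratio of each of the 6 probes on each array (points, shape and colour by array) with the mean of the 3 arrays (black bar); the x axis names the gene and its probe. The GOLS2 points run from 0.27 on array 2 to 2.23 on array 1, and the points of the other 5 probes lie between -0.59 and 0.45.

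GOLS4 stood at 0.45, -0.13 and 0.14 on arrays 1, 2 and 3, also by a single probe. Its order over the arrays was that of GOLS2, highest on array 1 and lowest on array 2, but its ratios lay on both sides of 0. The mean was 0.15 ± 0.29 (SD, n = 3 arrays; limma adjusted p = 0.665), and the 95% interval ran from a ratio of 0.863 to 1.43.

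GOLS1 had 2 probes, which gave 0.04, -0.43 and 0.01 for one (A_84_P785012) and -0.59, -0.53 and 0.02 for the other (A_84_P23846) on arrays 1, 2 and 3. The probes agreed within 0.1 on arrays 2 and 3 and differed by more than 0.6 on array 1. Averaged per gene, GOLS1 stood at -0.275, -0.48 and 0.015, a mean of -0.25 ± 0.25 (SD, n = 3 arrays; limma adjusted p = 0.38) with a 95% interval from a ratio of 0.67 to 1.06. An increase of the size seen for GOLS2 lies outside this interval.

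GOLS3, the cold-responsive member, had ratios of -0.21, -0.14 and -0.12 on arrays 1, 2 and 3. It was slightly below 0 on every array, as were 18% of all genes. Its mean was -0.16 ± 0.05 (SD, n = 3 arrays; limma adjusted p = 0.395), and the 95% interval ran from a ratio of 0.771 to 1.04. The small SD is that of an average of 2 probes that were not alike. Probe A_84_P16114, assigned by its RefSeq accession, stood at -0.48, -0.19 and -0.19. Probe A_84_P795110, assigned by its gene symbol alone, stood at 0.06, -0.09 and -0.05. By the first probe alone, a choice made after the data were seen, the mean ratio of GOLS3 was -0.29 (limma adjusted p = 0.237).

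**Figure D2:**
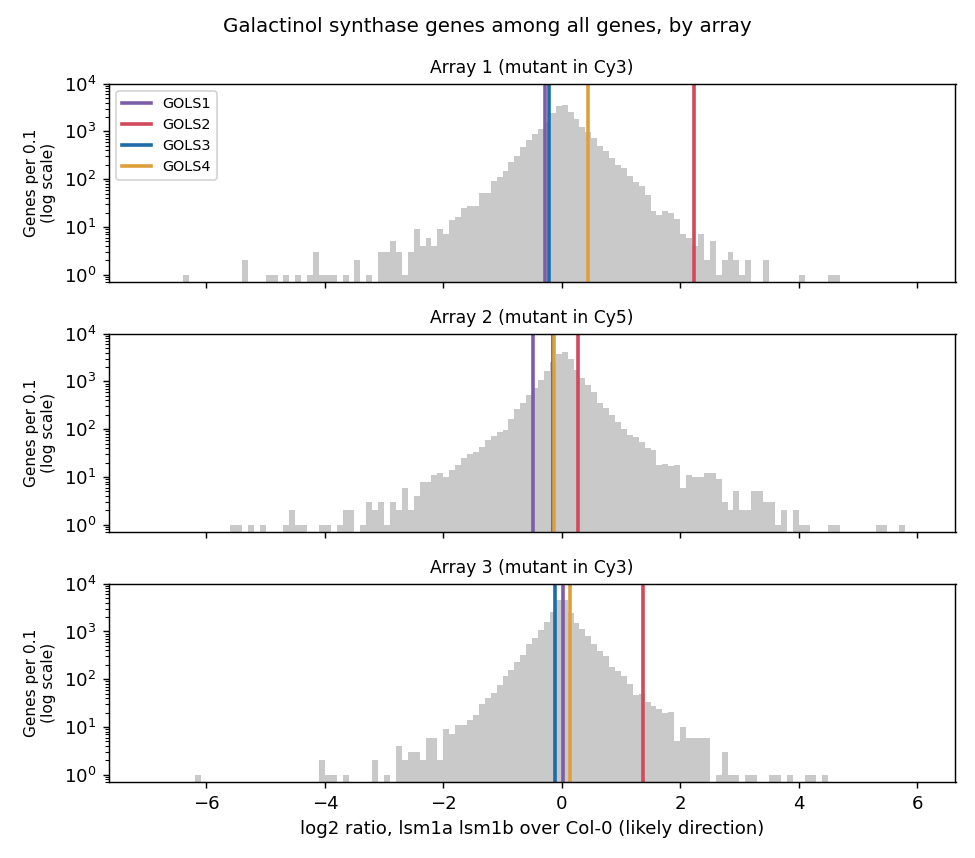
Histograms of the log2 ratios of all 24648 genes on each array (x axis: log2 ratio; y axis: genes per bin of 0.1, log scale), with the 4 galactinol synthase genes as vertical lines. GOLS2 lies in the upper tail on arrays 1 and 3, at 2.23 and 1.37, and inside the bulk on array 2, at 0.27.

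On every array GOLS2 had the highest ratio of the 4 genes, and on array 2 it was the only one above 0. The order of the means was GOLS2, GOLS4, GOLS3 and GOLS1; the 95% intervals of the last 3 overlap each other and include no change. The differences between genes were not tested.

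The size of the GOLS2 ratio varied with the arrays used. Without array 2 the mean was 1.80 (limma adjusted p = 0.0776), without array 1 it was 0.82 (adjusted p = 0.512) and without array 3 it was 1.25 (adjusted p = 0.577). With the dye orientation in the fit, which leaves 1 residual degree of freedom, it was 1.035 (adjusted p = 0.12). Dye orientation and the low ratio of array 2 moved together, and with 1 swapped array they cannot be told apart from a difference of the replicate 2 plants.

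**Figure D3:**
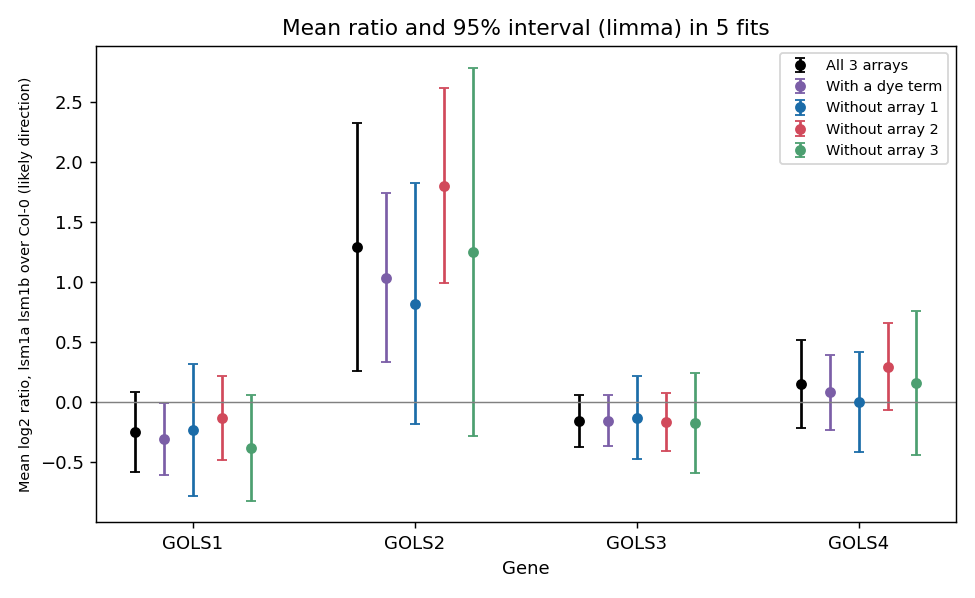
Mean log2 ratio (points) and 95% interval from limma (bars) of the 4 genes in 5 fits: all 3 arrays, with a dye term, and without each array. The GOLS2 mean runs from 0.82 to 1.80, and that of the other genes from -0.38 to 0.295.

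The array pattern of GOLS2 was found in 0.385% of all genes. Of 282 genes at or above 1 on both arrays 1 and 3, 95 (33.7%) were below 0.5 on array 2, GOLS2 among them, and 40 genes had the mirrored pattern, at or below -1 on arrays 1 and 3 and above -0.5 on array 2. These limits were set after the values of GOLS2 were seen, so its own place among the 95 is no result. By the Euclidean distance of the 3 ratios, the genes nearest to GOLS2 were PLPB (AT2G02710), which encodes a light-sensing PAS/LOV protein, at 2.06, 0.36 and 1.13, AT5G03460 at 2.03, 0.06 and 1.53, and AT3G09480 at 1.91, 0.19 and 1.54. Their distances were 0.308, 0.331 and 0.371. None of the 3 passed the threshold (limma adjusted p = 0.163, 0.209 and 0.171).

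The rest of the pathway was described from lists chosen by function, and 0 of their 67 measured members passed limma's adjusted threshold, while 19 had an unadjusted p under 0.05. Over all genes these shares are 1.21% and 20.1%. Genes named below beyond the largest absolute mean of each list were chosen after their values were seen. The other galactinol synthase genes lay near 0: 5 of 6 were measured, with means from -0.08 to 0.15, and 0 had an unadjusted p under 0.05. GOLS8, listed in the gene table as GATL10, had the largest mean, 0.15, with ratios of -0.40, 0.43 and 0.425. GOLS9 is listed there as GATL4. The gene table thus names both as galacturonosyltransferase-like as well, and which activity they have was not examined. GOLS7, which lies 2 protein-coding genes from GOLS4 in the gene order of TAIR10.1, stood at 0.01, -0.17 and 0.08. The overlap of near-identical copies under one probe was not examined.

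The raffinose synthase family was measured in 3 of its 4 other genes, and its largest ratio was negative. RS2 (SIP2), which encodes a raffinose-hydrolysing alkaline alpha-galactosidase and thus acts on the end product, stood at -1.655, -1.11 and -0.395 on arrays 1, 2 and 3. All 3 ratios were below 0, and its 2 probes had means 0.0733 apart. The mean was -1.05 ± 0.63 (SD, n = 3 arrays; limma unadjusted p = 0.012, adjusted p = 0.126), which did not pass. RS4 (STS), a stachyose synthase, stood at -0.11 ± 0.22. RS6 (DIN10), a dark-inducible gene with 7 probes, stood at -0.61, 0.28 and 0.48, with array 1 on the other side of 0 from the other arrays.

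Genes that supply the substrates showed no common direction. For myo-inositol synthesis, 2 of 6 measured genes had a mean above 0 and 4 below, with a list median of -0.10 against 0.01 over all genes. MIPS2, one of the genes of the first committed step, stood at 1.27, 0.97 and 0.08 (mean 0.77 ± 0.62, SD, n = 3 arrays; limma adjusted p = 0.2). MIPS1, a second gene of that step, stood at 0.11, -0.46 and -0.61. The 12 genes of UDP-galactose and sucrose supply had a median of -0.05, from -0.20 to 0.47. UGE1, a UDP-glucose 4-epimerase gene, had the largest mean, with -0.0675, 0.778 and 0.705 on the 3 arrays, and another epimerase gene, UGE3, stood at 0.19, 0.72 and 0.30.

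Genes that use or break down the intermediates were measured as well. The 3 alpha-galactosidase genes had means above 0, as did 51.8% of all genes, with a median of 0.41, but only AGAL1 was above 0 on all 3 arrays. It had the largest mean, 0.53 ± 0.23 (SD, n = 3 arrays; limma adjusted p = 0.113), with 0.40, 0.79 and 0.39 on the arrays. Of the 4 myo-inositol oxygenase genes, whose enzymes open the inositol ring, MIOX1 had the largest absolute mean, -0.73 ± 0.30 (adjusted p = 0.089), with -0.565, -1.08 and -0.55.

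**Figure D4:**
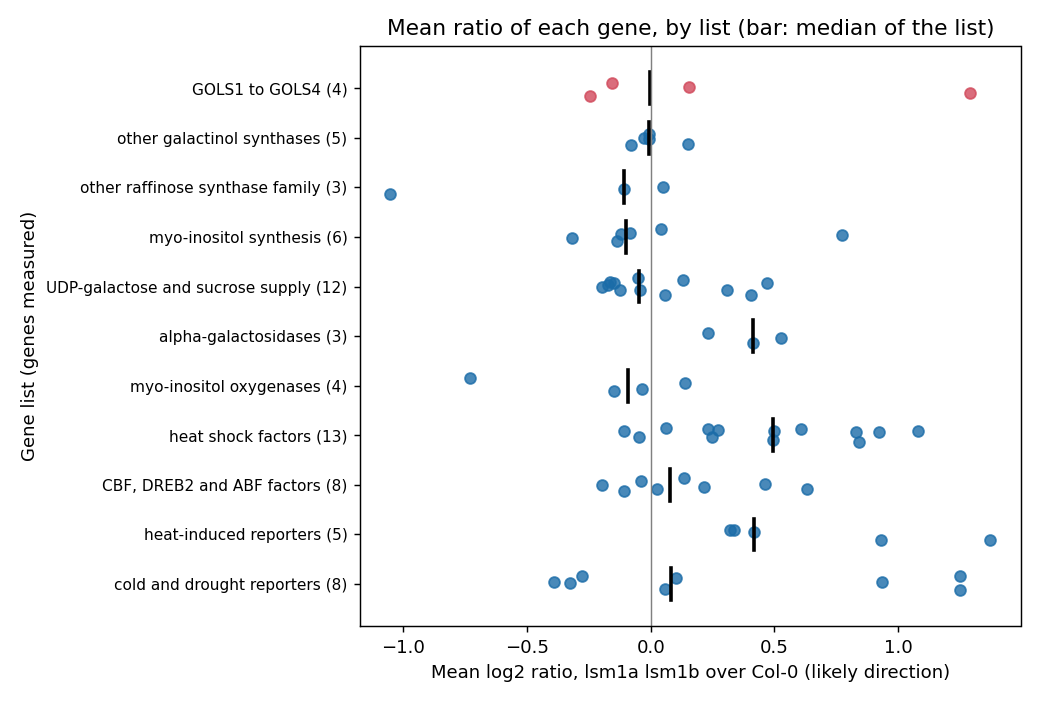
Mean log2 ratio of each measured gene (points; x axis) by gene list (y axis, genes measured in parentheses), with the list median as a black bar and GOLS1 to GOLS4 in red. The median of the heat shock factor list lies at 0.49 and that of the 4 galactinol synthase genes at 0.00; points are spread vertically only for legibility.

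Heat shock factors, only some of which are known to activate GOLS1 and GOLS2, lay mostly above 0. Of 13 genes, 11 had a mean above 0, 8 were above 0 on all 3 arrays against 19.7% of all genes, and 7 had an unadjusted p under 0.05 (limma) against 20.1% of all genes, with 0 past the adjusted threshold. Their median was 0.49 against 0.01 over all genes, with 0.61, 0.19 and 0.41 on arrays 1, 2 and 3. The single factors did not share an order over the arrays: 5 of 13 were lowest on array 2, as GOLS2 was, and 5 were highest there. Of all 24648 genes, 9338 were lowest and 10250 highest on that array. HSFA7A stood at 1.45, 1.38 and 0.41 (mean 1.08 ± 0.58, SD, n = 3 arrays; limma adjusted p = 0.108). HSFA2, an amplifier of the heat response, stood at 1.05, 1.27 and 0.45, HSFA3, which acts downstream of DREB2A, at 0.42, 0.92 and 1.15, and HSFB1 at 0.80, 1.01 and 0.713. HSFB1 missed the threshold narrowly (limma adjusted p = 0.0503). HSFA2 and, averaged over its 3 probes, HSFB1 were highest on array 2, the dye-swapped array, on which GOLS2 was lowest. A single HSFB1 probe, at 0.95, 0.82 and 0.71, was highest on array 1. HSFA7A was highest on array 1 and HSFA3 on array 3. The 5 heat-induced reporters had medians of 0.33, 1.09 and 0.25 on arrays 1, 2 and 3. All 5 were highest on array 2, as were 10250 of the 24648 genes. Of the reporters, HSP70 (AT3G12580) had the largest mean, 1.37 ± 0.43 (limma adjusted p = 0.0592). HSP90.1 stood at 0.93 ± 0.24 (limma adjusted p = 0.058), but its 2 probes had means of 1.27 and 0.59. HSP101 stood at 0.33, 0.67 and 0.25 on arrays 1, 2 and 3. HSP17.6II, at -0.10, 1.09 and -0.03, and HSP17.6A, at -0.19, 1.05 and 0.15, were below 0 on array 1. GOLS1, which is also known as a heat-responsive gene, had a mean below 0. Whether the heat shock factors bear on the GOLS1 and GOLS2 ratios was not tested.

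The CBF, DREB2 and ABF factors had a median of 0.08, and 0 of 8 passed limma's adjusted threshold, with 1 at an unadjusted p under 0.05, against 1.21% and 20.1% of all genes. CBF1, CBF2 and CBF3, the cold-response activators upstream of GOLS3, stood at -0.20 ± 0.26, -0.11 ± 0.47 and -0.04 ± 0.10 (SD, n = 3 arrays). DREB2A, an activator in the drought and heat responses, stood at 0.02 ± 0.32. ABF2, a factor of the abscisic acid response, had the largest mean, 0.63 ± 0.24 (limma adjusted p = 0.0889), with 0.905, 0.475 and 0.515.

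Cold and drought reporters were mixed, with 5 of 8 means above 0 and a median of 0.08. Averaged over the probes of each gene, all 8 were lowest on array 2, as GOLS2 was and as were 9338 of the 24648 genes. The single probes were not all alike. A probe of ERD10, at 0.83, 1.23 and 1.43, was lowest on array 1. So was a probe of RD29A, a further gene of the list, at 0.01, 0.03 and 0.29. The other probe of each of these genes was lowest on array 2. ERD10 stood at 1.165, 0.94 and 1.645 (mean 1.25 ± 0.36, SD, n = 3 arrays; limma adjusted p = 0.0552) and COR47 at 1.13, 0.857 and 1.76; both encode dehydrins. RAB18, a dehydrin gene of the abscisic acid response, stood at 1.235, 0.178 and 1.40, and like GOLS2 it was near 0 on array 2. LTI30, a further dehydrin gene, stood at -0.26, -1.31 and 0.40 and had the lowest mean of the list, -0.39 ± 0.86 (SD, n = 3 arrays), so the 4 dehydrin genes of the list did not share a direction. COR15A, a cold-induced chloroplast protein gene, stood at -0.14, -1.70 and 0.86, so the arrays did not share a sign, and the related gene COR15B stood at 0.02, -0.63 and -0.22.

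Markers of other tissues were read from the same ratios, which give no levels, so the rosette label itself could not be checked. Of the phloem companion cell markers, a cell type in which galactinol synthesis is known in many plants, 3 of 4 were measured, all with means below 0 and 2 below 0 on all 3 arrays, as were 18% of all genes. APL stood at -0.41 ± 0.09 (SD, n = 3 arrays; limma adjusted p = 0.102), AHA3 at -0.31 ± 0.08 and the sucrose carrier gene SUC2 at -0.29 ± 0.34. The 7 seed markers had means from -0.13 to 0.05, with CRU3 at -0.13 ± 0.15, and the 4 flower markers from -0.05 to 0.30, with AP1 at 0.30 ± 0.27. None of the 14 measured markers passed the adjusted threshold in limma, and 2 had an unadjusted p under 0.05, where all genes give 1.21% and 20.1%. Both were phloem companion cell markers, APL and AHA3 (limma unadjusted p = 0.0068 and 0.018), 2 of the 3 measured. The seed and flower markers had 0. Whether the markers bear on the galactinol synthase ratios was not tested.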

How the data were processed

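The deposited values were read as normalized log2 ratios of the 2 channels, 1 per probe and array, to 2 decimals. The authors used limma, per the submitters' processing notes, which give no version. For background correction, normalization, log base and sign, the steps were not given in the sources used here. Base 2 was assumed, and the range of -6.76 to 5.87 does not settle it. No intensities were used, so dim probes could not be told from bright ones. Precision is limited by the number of arrays.

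Of 43601 probes other than 55 control features, 34342 had 1 gene symbol, 0 several and 9259 none in the platform annotation, which can be old. RefSeq names (TAIR10.1) were matched by accession for 32238 probes and by symbol for 2015; 44 were left unnamed because both disagreed, and 45 matched no gene. Probes of a gene were averaged. The two-sided test of the mean ratio against 0 used lmFit and eBayes of limma 3.58.1 (R 4.3.3), with Benjamini-Hochberg adjustment over 24648 genes and a threshold of 0.05. The fit was tested on simulated data.

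The members and lists were chosen with earlier results of these data known. The rule for named genes took all members, the largest absolute mean of each list where none passed, and the 3 genes nearest to the member with the largest mean; further genes named in the text were chosen after their values were seen. Alternatives changed the scaling, the probe averaging, the test, the dye term and the arrays used. No sequence of the genes or probes was used here.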

Additional observations from a re-analysis of the deposited data

How the results depend on the processing

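The 4 galactinol synthase genes and the 67 pathway genes gave 0 calls in every setting run. With the dye term and without each replicate in turn, 0 of all genes were called, so those settings cannot show whether the absence is stable. The ordinary one-sample statistic called only 5 genes in all and is hardly more telling. At an unadjusted p under 0.05, 1 of the 4 passed in the main limma fit and from 0 to 2 in the other settings. With the ordinary one-sample statistic the number was 1 (GOLS3). GOLS1 to GOLS4 kept their signs in all settings. The count of all genes called moved: 298 in the main fit, 76 with the arrays scaled to a common spread, 193 with every probe tested on its own, 180 with robust variance shrinkage, 5 with the ordinary one-sample statistic, 0 with the dye term and 0 without each replicate in turn, settings that leave 1 residual degree of freedom. In these, 6382, 2804, 7326 and 2542 genes had an unadjusted p under 0.05 in limma (dye term, then without array 1, 2 and 3). Outside the dye term and the left-out arrays, the GOLS2 mean lay between 1.26 and 1.40. Of the other named genes followed through the settings, 8 with small or scattered ratios changed sign when 1 array was left out. Without each replicate in turn, GOLS7 ranged from -0.08 to 0.045 and RS4 from -0.182 to 0.02, both above 0 without array 2. RS6 ranged from -0.168 to 0.381, at -0.0643 without array 2 and lowest without array 3. CBF2 ranged from -0.33 to 0.14, above 0 without array 1. CBF3 ranged from -0.085 to 0.015, above 0 without array 3. DREB2A ranged from -0.152 to 0.157, below 0 without array 3. COR15A ranged from -0.92 to 0.36 and LTI30 from -0.785 to 0.07, both above 0 without array 2. HSP17.6II and HSP17.6A were not among the genes followed. On arrays 1 and 3 HSP17.6II stood at -0.10 and -0.03 and HSP17.6A at -0.19 and 0.15, so both means fall below 0 without array 2. CBF2 was at 0 with the dye term. Without each replicate in turn, GOLS1 ranged from -0.378 to -0.13, GOLS2 from 0.82 to 1.80, GOLS3 from -0.175 to -0.13 and GOLS4 from 0.005 to 0.295. The causes were not tested. The test was already paired by array, because each ratio sets the mutant against Col-0 on the same array. No further pairing was possible with 1 group of arrays.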

Other observations

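The genes next to the galactinol synthase genes in the gene order of TAIR10.1 were read as values. Of the 2 protein-coding genes on each side of GOLS2, the means ran from -0.26 to 0.40, against 1.29 for GOLS2 itself. Around GOLS1 the 4 neighbours had means from 0.06 to 0.32, around GOLS3 from -0.23 to 0.16 and around GOLS4 from -0.25 to 0.01. None of these 16 genes passed limma's adjusted threshold, against 1.21% of all genes, and GOLS2 did not pass it either. The genes were chosen by position after the ratios of the galactinol synthase genes were seen.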
